A study of Homo sapiens with 12 samples.

Results

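The 37 genes described here belong to a list of 41 genes of glycolysis and of the cellular response to low oxygen, out of 18404 genes with a named row in the table. A member was taken from rows that carry a single gene symbol, and where a gene had several such rows the one with the highest mean over all arrays stood for it. CA9, SLC16A1 and SLC16A3 had no row of that kind, and PGAM1 had only rows that also name PGAM4, so these 4 genes were left without a value. TPI1 was the 1 member with a choice of rows.

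The samples were 12 arrays of L-1236 and U-HO1 (also written UHO-1), both established lines from classical Hodgkin lymphoma, a B cell cancer. Each line had been transduced with an shRNA directed at GATA-3 or with a control shRNA without a function, kept in culture for 3 days and sorted for GFP, after which RNA of 25000 sorted cells was amplified. There were 3 independent arrays for each line and shRNA. The medium was RPMI 1640 for L-1236 but IMDM for U-HO1, both with fetal calf serum, glutamine and antibiotics, so that line and medium cannot be told apart. The sources used here do not give the oxygen tension or the glucose of the cultures, and each line stands for 1 patient's tumour.

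Glycolysis splits glucose into pyruvate, which is either oxidised in mitochondria or reduced to lactate. In low oxygen the prolyl hydroxylases of the EGLN family lose activity, so that the alpha subunits HIF1A and EPAS1 are no longer destroyed and switch on genes of glucose uptake, glycolysis, blood vessel growth and mitochondrial turnover. Hodgkin lymphoma tumours are known for strong glucose uptake, which is the basis of imaging them with a labelled glucose analogue.

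The depth of an array is set by its probes and not by reads, so 3 arrays a group limit the precision. All levels are the deposited values, taken here as log2, and each row has its own scale, so that the level of one gene says nothing about its amount beside another. The medians of the arrays ran from 6.96 to 7.09, and arrays of one line correlated at 0.986 to 0.995 against 0.939 to 0.951 between lines. GATA3, the target of the shRNA, read 10.29, 10.69 and 9.95 in L-1236 under the control label and 10.80, 10.00 and 10.24 under the knockdown label (difference 0.03, exact permutation p = 0.9, two-sided). In U-HO1 it read 11.24, 10.90 and 10.24 against 11.07, 10.12 and 10.22 (difference -0.32, exact permutation p = 0.5, where 3 against 3 cannot go below 0.1). The label therefore goes against the target on some arrays, and "labelled knockdown" is used below. On arrays labelled control the gene means of the 7 Hodgkin lymphoma markers ran from 6.84 to 12.09, with CD30 (TNFRSF8) at 9.59 in L-1236 and 10.27 in U-HO1. Their array means ran from 8.94 to 9.10 in L-1236 and from 9.73 to 10.04 in U-HO1. Array means of the 4 B cell markers ran from 7.22 to 7.29 in L-1236 and from 6.66 to 6.79 in U-HO1, those of the 5 T cell markers from 6.59 to 6.69 and from 6.22 to 6.42, those of the 3 monocyte markers from 6.43 to 6.55 and from 6.34 to 6.51 and those of the 4 fibroblast markers from 6.78 to 6.89 and from 6.70 to 6.85, all on arrays labelled control. Such array means average rows of separate scales and hide single genes. On the same arrays the B cell markers had gene means from 5.76 to 9.61 in L-1236 and from 5.81 to 7.64 in U-HO1. Of the B and T cell markers, 1 each was lower in U-HO1 (adjusted p = 7.1e-06 and 1.2e-05, limma). The 8 interferon response markers varied most within a line, with array means from 7.55 to 10.40 in L-1236 labelled control and from 8.49 to 10.25 in L-1236 labelled knockdown.

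The 250 bases before the annotated start of 5 members are shown as examples from the contrasts that follow, not as a full set. SLC16A4, ALDOC and PGK1 were among the members that differed between the lines. BNIP3 and P4HA1 were among those with the largest spread between arrays of one group. They come from RefSeq on GRCh38.p14, are written 5′ to 3′ on the strand of the gene and touch no other gene in that table. Capitals mark the core of the HIF binding motif, ACGTG or GCGTG, on either strand, so that CACGT and CACGC are its reverse complements, and the E-box CACGTG holds ACGTG on both strands and is counted as 2 matches.
BNIP3, chr10:131981924-131982173, minus strand: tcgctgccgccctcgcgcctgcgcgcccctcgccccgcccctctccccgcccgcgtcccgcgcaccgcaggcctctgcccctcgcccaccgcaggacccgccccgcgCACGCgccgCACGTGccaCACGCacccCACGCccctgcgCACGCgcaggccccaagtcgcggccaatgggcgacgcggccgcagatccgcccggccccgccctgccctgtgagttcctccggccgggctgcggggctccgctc
P4HA1, chr10:73096867-73097116, minus strand: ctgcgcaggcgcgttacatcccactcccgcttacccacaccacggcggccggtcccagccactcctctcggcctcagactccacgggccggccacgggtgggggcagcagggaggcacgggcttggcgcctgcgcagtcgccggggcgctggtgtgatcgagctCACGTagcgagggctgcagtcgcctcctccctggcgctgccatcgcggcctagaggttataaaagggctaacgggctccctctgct
ALDOC, chr17:28576896-28577145, minus strand: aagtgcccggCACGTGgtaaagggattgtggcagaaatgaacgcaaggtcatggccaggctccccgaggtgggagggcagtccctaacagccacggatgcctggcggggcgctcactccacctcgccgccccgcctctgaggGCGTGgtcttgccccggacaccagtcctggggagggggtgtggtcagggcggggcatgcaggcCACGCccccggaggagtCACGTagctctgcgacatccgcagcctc
PGK1, chrX:78103998-78104247, plus strand: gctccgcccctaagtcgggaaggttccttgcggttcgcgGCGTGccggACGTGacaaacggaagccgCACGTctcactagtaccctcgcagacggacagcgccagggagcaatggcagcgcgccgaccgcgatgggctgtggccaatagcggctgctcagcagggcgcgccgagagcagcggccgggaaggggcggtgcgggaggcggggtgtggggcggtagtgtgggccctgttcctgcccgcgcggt
SLC16A4, chr1:110391027-110391276, minus strand: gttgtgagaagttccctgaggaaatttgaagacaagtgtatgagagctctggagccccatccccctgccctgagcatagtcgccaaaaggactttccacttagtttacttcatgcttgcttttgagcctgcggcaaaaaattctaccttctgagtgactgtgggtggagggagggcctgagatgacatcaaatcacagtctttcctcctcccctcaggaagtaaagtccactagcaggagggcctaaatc

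BNIP3 held 6 matches within this window, ALDOC 5, PGK1 3 and P4HA1 1, and the letters were not found in that of SLC16A4. The window of EPAS1, which also differed between the lines and is not shown, held 1 match. Windows were on hand for 33 of the 37 measured members, 59 in all because some genes have several starts. SLC2A3, VEGFA, BNIP3L and NDRG1 are named only. At least 1 match lay in 59.3% of the members' windows, beside 43.2% of the 35116 windows of 27305 genes in the table, and ACGTG alone lay in 37.3% against 18.5%. The 15 windows of hypoxia response and hydroxylase genes held a match in 73.3% and the 37 windows of glycolysis genes in 54.1%. A match is a string of letters and not evidence of binding.

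The main contrast among these genes was between the lines. On arrays labelled control, 14 of the 37 members passed an adjusted p under 0.05 (37.8%, limma with Benjamini-Hochberg adjustment over all rows). The background, which is the share of all 18404 genes that passed by their brightest row, was 32%, so that differing between these lines was not rare for any gene. HK1, PFKL, PFKP, PFKFB3, PGK1, BNIP3L and ANKRD37 were higher in U-HO1 (7 members or 18.9%, background 16.4%). PFKM, ALDOC, SLC16A4, EPAS1, EGLN3, VEGFA and NDRG1 were lower (7 members, background 15.6%). A difference of at least 2-fold was reached by PFKM, ALDOC, SLC16A4 and EPAS1 (10.8% of members, background 6.99%), all 4 being lower in U-HO1. The median difference over the members was 0.00 and over all rows 0.00.

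**Figure D1:**
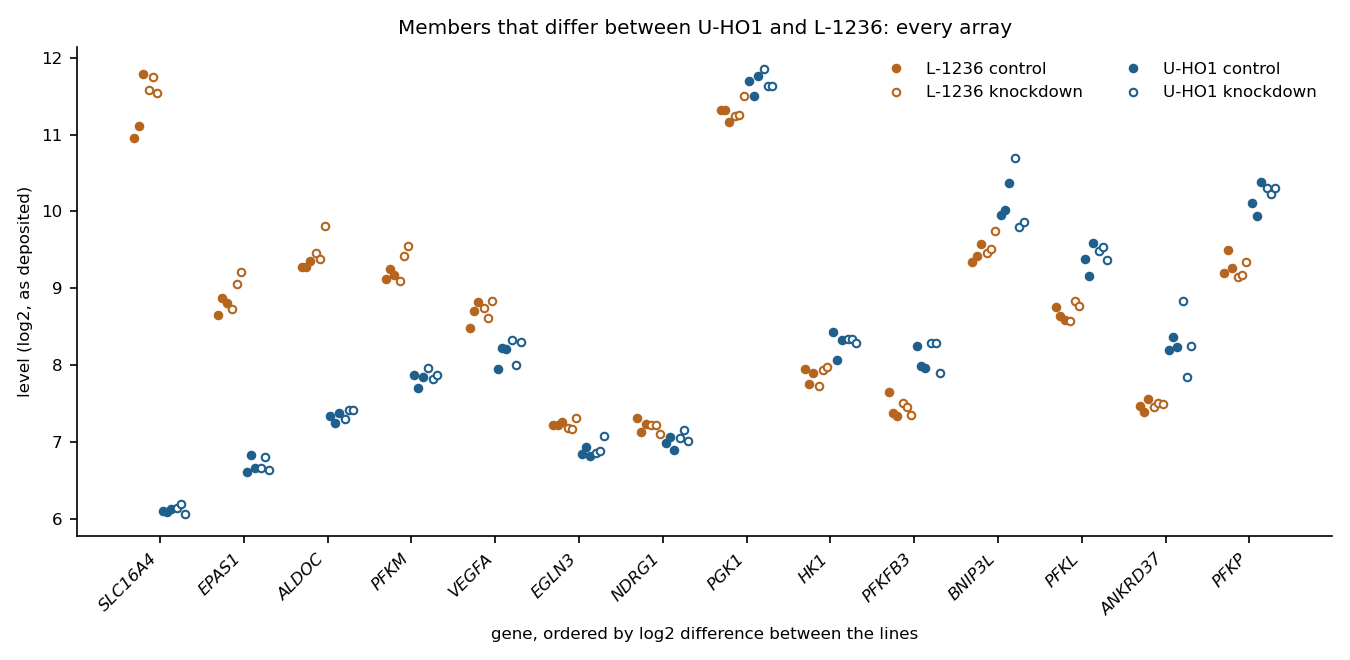
Level (log2, vertical axis) on every array of the 14 members that differed between the lines, ordered by the difference. Filled points are arrays labelled control and open points arrays labelled knockdown, brown for L-1236 and blue for U-HO1. SLC16A4 lies between 10.96 and 11.78 on all L-1236 arrays and between 6.06 and 6.20 on all U-HO1 arrays.

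Glucose transporters came first in the pathway and did not pass the test. SLC2A1 (GLUT1, the widespread basal transporter) read 10.58, 10.69 and 10.46 in L-1236 and 10.44, 9.93 and 10.56 in U-HO1 (difference -0.26, 95% interval -0.59 to 0.06). SLC2A3 (GLUT3, a high affinity transporter) read 9.76, 9.63 and 9.90 against 9.63, 9.20 and 9.51 (difference -0.31, adjusted p = 0.12). Both groups overlapped in each gene. With the arrays of both labels joined, 6 a line, SLC2A1 differed by -0.31 (adjusted p = 0.036) and SLC2A3 by -0.30 (adjusted p = 0.027, limma).

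The hexokinases, which trap glucose as glucose 6-phosphate, moved in opposite directions. HK1, the housekeeping form, read 7.95, 7.75 and 7.90 in L-1236 and 8.43, 8.07 and 8.33 in U-HO1 (difference 0.41, adjusted p = 0.0092, limma). HK2, the inducible form that is frequent in tumours, read 8.81, 8.84 and 8.47 against 8.65, 8.09 and 8.23 (difference -0.38, adjusted p = 0.064 and so not past the threshold; with both labels joined -0.37, adjusted p = 0.010). U-HO1 was above L-1236 on every control array for HK1, whereas the HK2 groups overlapped. GPI, which isomerises glucose 6-phosphate, differed by 0.09 with an interval from -0.25 to 0.43.

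Phosphofructokinase, the committed step, has 3 isoforms here, and 2 further members make its activator. Of these 5 genes 4 passed the test (background 32%), a count from a small group. PFKM, the muscle isoform, read 9.12, 9.25 and 9.17 in L-1236 and 7.88, 7.71 and 7.85 in U-HO1, which is 2.58-fold lower (log2 -1.37 ± 0.11 SE, adjusted p = 1.5e-06, limma). The lowest L-1236 array was above the highest U-HO1 array by more than the spread within either line. PFKL, the liver isoform, read 8.76, 8.65 and 8.59 against 9.38, 9.17 and 9.60 and was higher in U-HO1 by 0.72 (adjusted p = 3.9e-04). PFKP, the platelet isoform, read 9.21, 9.50 and 9.26 against 10.11, 9.94 and 10.38, higher by 0.82 (adjusted p = 1.8e-04). All 3 isoforms were thus separated without overlap, with PFKM on one side and PFKL and PFKP on the other. The bifunctional enzymes PFKFB3 and PFKFB4 make the activator fructose 2,6-bisphosphate. PFKFB3 was higher by 0.62 in U-HO1 (7.66, 7.37 and 7.34 against 8.25, 7.99 and 7.97, adjusted p = 0.0030). PFKFB4 read 7.25, 7.23 and 7.53 against 6.92, 6.96 and 7.04 (difference -0.36, adjusted p = 0.070), without overlap but not past the threshold, and with both labels joined it differed by -0.30 (adjusted p = 0.024, limma).

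Among the 8 genes of lower glycolysis ALDOC and PGK1 differed. ALDOC, the aldolase isoform best known from brain, read 9.27, 9.28 and 9.35 in L-1236 and 7.35, 7.25 and 7.38 in U-HO1, which is 3.94-fold lower (log2 -1.98 ± 0.10 SE, adjusted p = 4.7e-08, limma). All L-1236 arrays were above all U-HO1 arrays. ALDOA, the widespread aldolase, read 10.02, 10.20 and 9.94 against 10.14, 9.98 and 10.04, a difference of 0.00 with an interval from -0.21 to 0.21. PGK1, which makes the first ATP of the pathway, read 11.32, 11.32 and 11.16 against 11.69, 11.51 and 11.77 (difference 0.39, adjusted p = 0.012). Without L-1236 control 3 or without U-HO1 control 3 the difference of PGK1 was 0.34 in each case, with adjusted p = 0.054 and 0.051. The other 5 genes had intervals across 0: TPI1 0.10 (its other row lay at a mean of 7.19), GAPDH 0.13, ENO1 0.14, ENO2 -0.15 and PKM 0.00. The interval of PKM, which makes pyruvate, ran from -0.19 to 0.20, and that of GAPDH from -0.10 to 0.35.

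At the exit of the pathway the lactate dehydrogenases LDHA and LDHB differed by 0.00 (interval -0.24 to 0.25) and 0.04 (interval -0.24 to 0.33). PDK1, the kinase that holds back pyruvate dehydrogenase, differed by 0.05 (interval -0.39 to 0.49). SLC16A4, a member of the monocarboxylate transporter family, had the largest difference of all members. It read 10.96, 11.11 and 11.78 on L-1236 control arrays, 11.58, 11.74 and 11.54 on L-1236 arrays labelled knockdown, 6.11, 6.09 and 6.14 on U-HO1 control arrays and 6.15, 6.20 and 6.06 on those labelled knockdown. The lines were apart by a factor of 36.0 on control arrays (log2 -5.17 ± 0.16 SE, adjusted p = 9.6e-10, limma). Whether the U-HO1 value of SLC16A4 stands above background is not known here, since no detection values were used.

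Of the alpha subunits of HIF, EPAS1 passed the test and HIF1A did not. EPAS1 (HIF-2 alpha) read 8.65, 8.88 and 8.81 in L-1236 and 6.62, 6.83 and 6.67 in U-HO1, 4.21-fold lower (log2 -2.07 ± 0.12 SE, adjusted p = 1.1e-07, limma). HIF1A (HIF-1 alpha) read 10.63, 10.71 and 10.72 against 10.87, 10.81 and 11.07 (difference 0.23, adjusted p = 0.12). HIF1A did not overlap between the lines on control arrays, but it did not pass the test. With both labels joined HIF1A differed by 0.13 (adjusted p = 0.21, limma). Its protein is controlled mainly by degradation, which an array does not measure. Of the hydroxylases that mark both subunits for destruction, EGLN3 read 7.22, 7.22 and 7.26 against 6.85, 6.93 and 6.82 (difference -0.37, adjusted p = 0.0033), while EGLN1 differed by -0.05 with an interval from -0.24 to 0.15.

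Of the 12 hypoxia response genes, PDK1 among them, 4 differed between the lines, 2 in each direction (33.3%, near the background of 32%). BNIP3L, which marks mitochondria for autophagy, read 9.35, 9.42 and 9.58 in L-1236 and 9.95, 10.02 and 10.37 in U-HO1 (difference 0.66, adjusted p = 0.030, limma). ANKRD37, a small ankyrin repeat protein, read 7.48, 7.40 and 7.56 against 8.20, 8.37 and 8.23 (difference 0.79, adjusted p = 0.0057). Both groups of arrays were apart in each gene. VEGFA, the growth factor of blood vessels, read 8.48, 8.71 and 8.83 against 7.95, 8.23 and 8.21 (difference -0.54, adjusted p = 0.0046). NDRG1, a differentiation and stress protein, read 7.31, 7.13 and 7.24 against 6.99, 7.07 and 6.90 (difference -0.24, adjusted p = 0.033). The calls of BNIP3L and NDRG1 were lost on leaving out single arrays: BNIP3L without L-1236 control 1 (0.61, adjusted p = 0.094) or 2 (0.65, 0.068) or U-HO1 control 2 (0.71, 0.053) or 3 (0.53, 0.12), and NDRG1 without L-1236 control 1 (-0.20, 0.12) or 3 (-0.24, 0.086) or U-HO1 control 1 (-0.25, 0.077) or 3 (-0.20, 0.11). Uncalled differences were -0.02 for BNIP3, 0.00 for ADM (adrenomedullin, a vasodilator peptide), 0.15 for P4HA1 and 0.30 for P4HA2 (collagen prolyl hydroxylases), 0.22 for MXI1 (a MYC antagonist), 0.36 for KDM3A (a histone demethylase) and -0.22 for DDIT4 (an inhibitor of mTORC1).

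**Figure D2:**
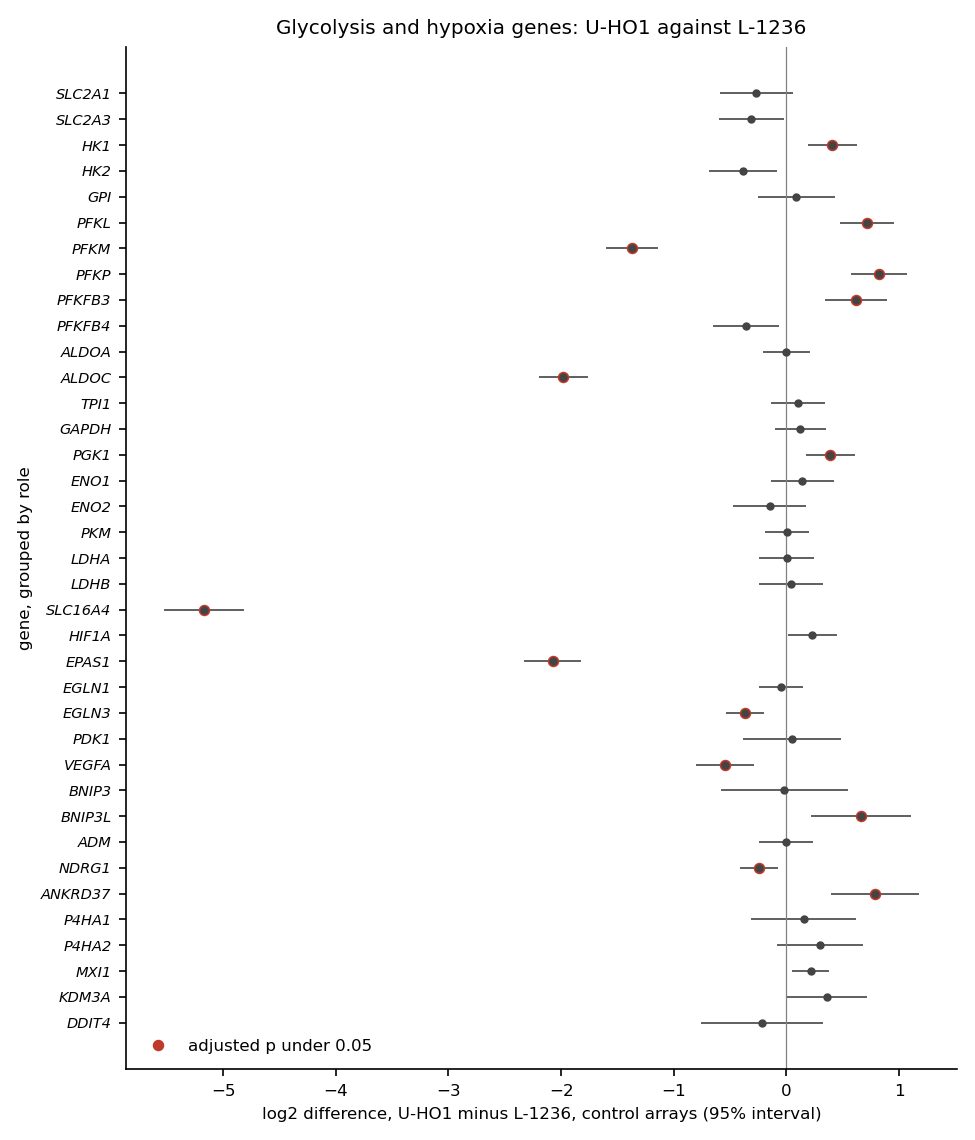
Difference between U-HO1 and L-1236 on arrays labelled control (log2, horizontal axis) for each of the 37 members, grouped by role, with the 95% interval of the fit as a bar and red rings at adjusted p under 0.05. The differences run from -5.17 for SLC16A4 to 0.82 for PFKP, and most of lower glycolysis lies near 0.

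Counting groups without overlap in place of adjusted p, 18 members were apart between the lines on control arrays (48.6%, background 40.3%). For 17 of the 37 members the 95% interval excluded a 1.5-fold difference in either direction, among them ALDOA, PKM, LDHA, LDHB and GAPDH.

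Related genes were also set against each other on the same array, since a shift common to an array cancels in their log2 ratio. Such a ratio compares rows of different probes, so only its change between lines was read and not its size. Of 13 pairs, 7 had ratios that did not overlap over the 6 arrays of each line, with no test and no background over other pairs. On control arrays the EPAS1 to HIF1A ratio was -1.90 ± 0.08 (SD, n = 3) in L-1236 and -4.21 ± 0.22 in U-HO1, a shift of -2.31. PFKM to PFKP went from -0.14 ± 0.09 to -2.33 ± 0.17, and PFKM to PFKL from 0.52 ± 0.14 to -1.57 ± 0.16. The pair of isoforms whose single differences had the same sign, PFKP and PFKL, kept overlapping ratios, 0.66 ± 0.20 against 0.76 ± 0.02. ALDOC to ALDOA shifted by -1.98, PFKFB4 to PFKFB3 by -0.97, HK2 to HK1 by -0.79 and BNIP3L to BNIP3 by 0.68. BNIP3L to BNIP3 touched at the edge, with 0.52 as both the highest L-1236 and the lowest U-HO1 value at this rounding. Ratios of ENO2 to ENO1, LDHB to LDHA, SLC2A3 to SLC2A1, EGLN3 to EGLN1 and P4HA2 to P4HA1 overlapped, with shifts of -0.29, 0.04, -0.04, -0.32 and 0.15.

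**Figure D3:**
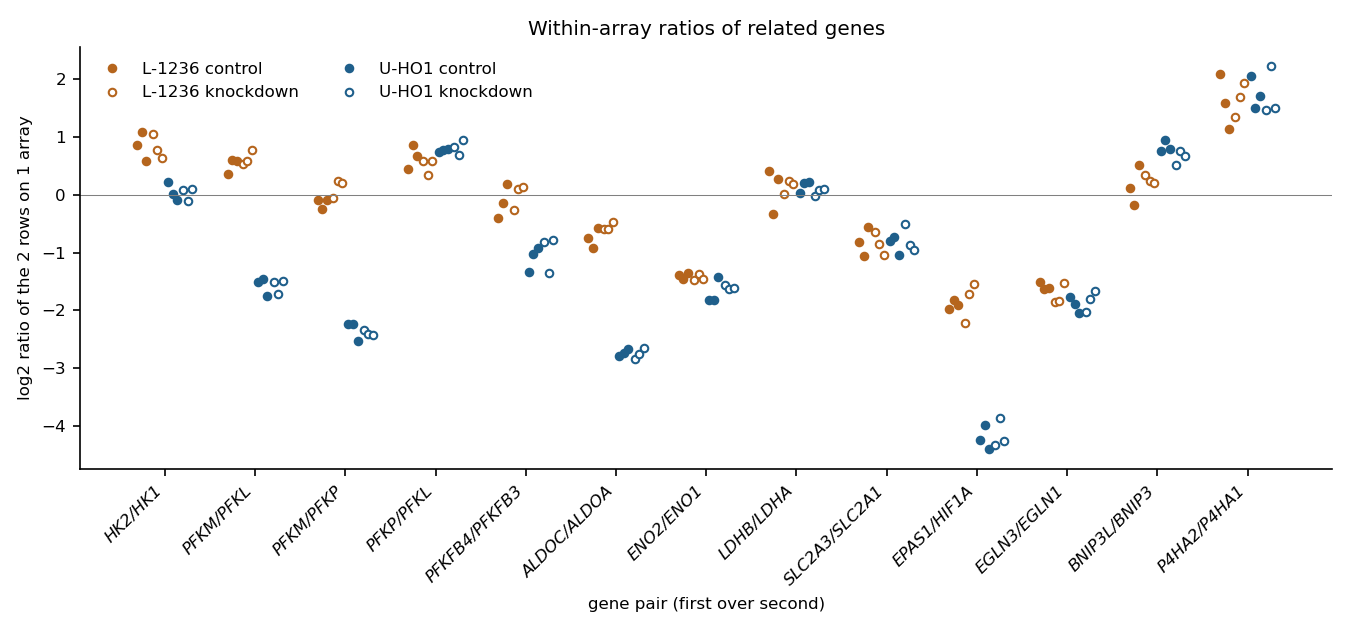
Log2 ratio of the rows of related genes on the same array (vertical axis) for 13 pairs, with the colours and fills of the plot of levels by line. EPAS1/HIF1A, PFKM/PFKL, PFKM/PFKP and ALDOC/ALDOA form bands for the lines that lie far apart, while LDHB/LDHA and SLC2A3/SLC2A1 share 1 range.

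For genes of the same pathways outside the member list, counts again refer to control arrays, and the background over all genes is 32% differing in either direction, 16.4% higher and 15.6% lower. Of 25 other glycolysis genes 3 were higher in U-HO1 and 3 lower, with ENO3, the muscle enolase, at 1.97, BPGM at 0.45, the fructose transporter SLC2A5 at 0.71 and PFKFB2 at -0.48. Of 12 genes of pyruvate oxidation 5 were higher and 2 lower, among them PDHX at 0.61, the pyruvate carrier subunit MPC1 at 0.63, DLD at 0.53 and the kinase PDK2 at -0.57. Of 6 pentose phosphate genes PGD was lower by -0.98 and TALDO1 higher by 0.36. Of 16 regulators of HIF 7 were higher and 4 lower: ARNT2, a partner of the alpha subunits, at 1.49, CITED2, which competes with HIF for its coactivators, at 1.49, USP20 at -0.82 and RBX1, part of the ubiquitin ligase that removes HIF, at 1.14. The usual partner ARNT differed by -0.77 and VHL, which recognises hydroxylated HIF, by -0.43. Of 35 other HIF targets 9 were higher and 6 lower, led by RRAGD at -2.09, NRN1 at -1.85, CCNG2 at -1.73 and RORA at 0.57. Of 7 genes around lactate transport 3 were higher and 1 lower: EMB, a chaperone of these transporters, at 2.34, SLC16A7 (MCT2) at -0.75, SLC16A10 at 0.56 and SLC16A9 at 0.32.

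Between arrays labelled knockdown and labelled control, no member passed an adjusted p under 0.05 in either line (background 0%, limma). The submitters asked for an FDR of 25% or less together with a 1.5-fold change, and no member met that either (background 0%). Without adjustment, p was under 0.05 for 1 member in L-1236 (background 2.48%) and for 0 in U-HO1 (background 0.435%). The precision was such that the 95% interval excluded a 1.5-fold change for 35 members in L-1236 and 34 in U-HO1.

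In L-1236 the member with the smallest p was ALDOC, at 9.27, 9.28 and 9.35 on control arrays and 9.46, 9.38 and 9.81 on arrays labelled knockdown (difference 0.24, unadjusted p = 0.033, adjusted p = 0.92, limma). ALDOC, SLC2A1, SLC2A3 and HIF1A lay above control on all arrays labelled knockdown, 4 members or 10.8%, where the background without overlap in either direction was 7.91%. EPAS1 differed by 0.22 and read 8.73, 9.05 and 9.22 against 8.65, 8.88 and 8.81. SLC16A4 differed by 0.34, with the first and second control arrays, at 10.96 and 11.11, below all others of the line. Without L-1236 control 3, at 11.78, SLC16A4 differed by 0.59 (adjusted p = 0.19), which is the 1 case in which a member passed the submitters' criteria. The interferon response gene MX1 read 8.47, 8.07 and 10.99 on the control arrays and 10.16, 10.99 and 9.53 on those labelled knockdown, so it was lowest on the same arrays as SLC16A4. MX1 was picked after its values were seen, and the part of interferon response genes in the SLC16A4 result was not tested. On the lower side PFKP differed by -0.09, ADM by -0.08 and NDRG1 by -0.05, with overlap in each.

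In U-HO1 the smallest p belonged to SLC2A3, at 9.63, 9.20 and 9.51 on control arrays and 9.87, 9.82 and 9.44 on arrays labelled knockdown (difference 0.26, adjusted p = 1.0, limma). PFKFB4 differed by 0.21 and NDRG1 by 0.09, and on the lower side HIF1A by -0.06, GAPDH by -0.01 and EGLN1 by -0.00. No member was without overlap (background 3.03%). The size of several differences rested on U-HO1 knockdown 1. Without that array the difference of BNIP3 went from 0.19 to -0.16, that of BNIP3L from 0.00 to -0.28, that of PDK1 from 0.06 to -0.20, that of ANKRD37 from 0.04 to -0.22 and that of KDM3A from 0.05 to -0.17, none of them past the test.

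Most members had small positive differences: 31 of 37 in L-1236 (background 53.1%) with a median of 0.07, and 33 of 37 in U-HO1 (background 50.2%) with a median of 0.06. The member median of single arrays had a within-group SD of 0.23, and members vary together, so these are not independent counts. In L-1236, 11 of 12 pyruvate oxidation genes, 14 of 16 HIF regulators, 21 of 35 other HIF targets and 11 of 25 other glycolysis genes were positive. In U-HO1 the counts were 5, 10, 27 and 15. The count in L-1236 was 29 after quantile normalization and 35 with arrays centred on their medians, and in U-HO1 35 and 32. The median in L-1236 ran from 0.01 without knockdown 3 to 0.11 without knockdown 1, and in U-HO1 from 0.02 without control 2 to 0.08 without knockdown 3. No member's knockdown effect differed between the lines past the test (limma, 0 with adjusted p under 0.05, background 0%, and 0 before adjustment, background 1.04%). Averaged over both lines, 1 member had a p under 0.05 before adjustment (background 0.897%), SLC2A3, at 0.24 (adjusted p = 1.0). None of the other pathway lists held a gene past the threshold in a knockdown comparison.

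**Figure D4:**
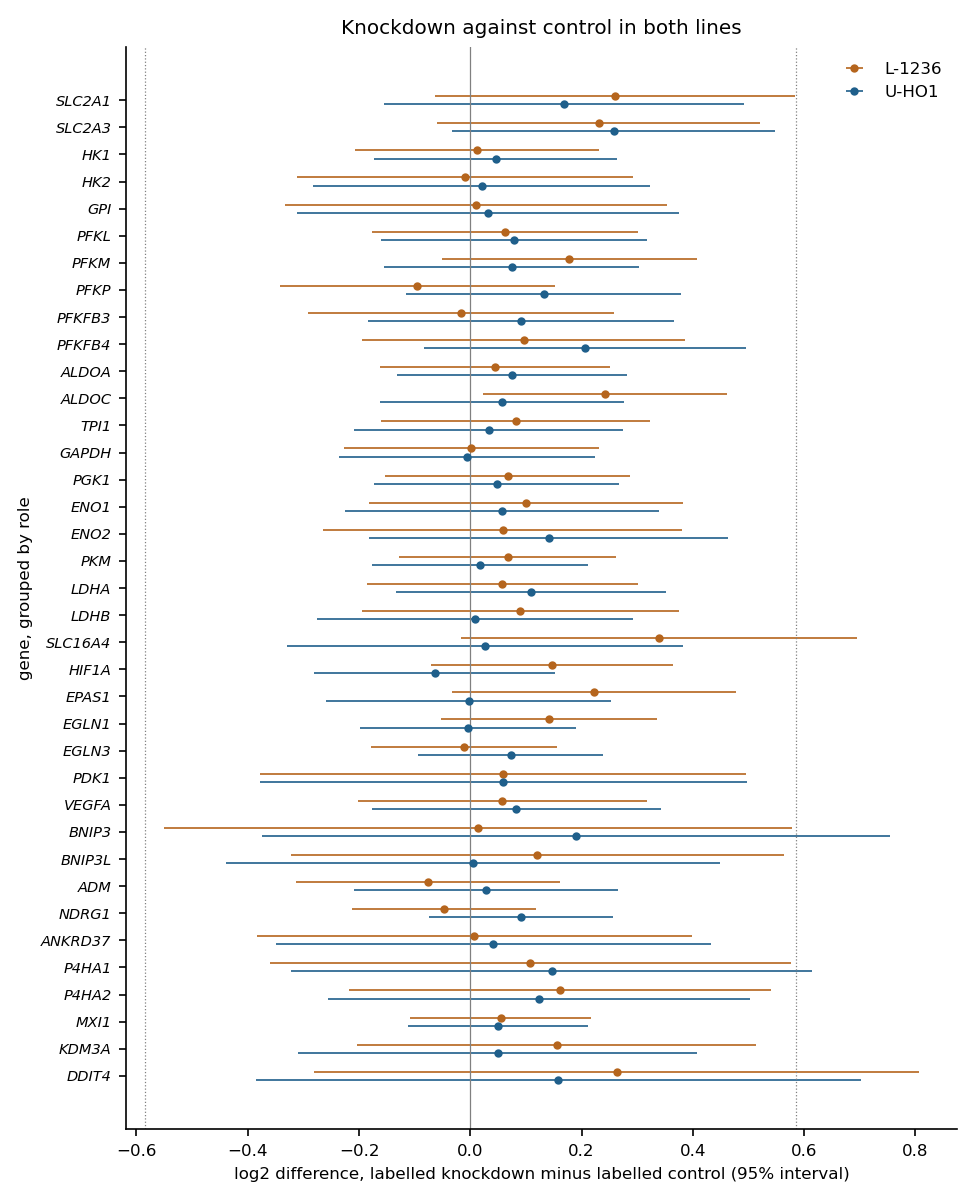
Difference between arrays labelled knockdown and labelled control (log2, horizontal axis) for each member in L-1236 (brown) and U-HO1 (blue), with 95% intervals and dotted lines at a 1.5-fold change. Most points lie between 0 and 0.34, and the interval of ALDOC in L-1236 is the 1 that leaves out 0.

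The spread between arrays of one group was itself uneven over the members. The median within-group SD was 0.157 for members, beside 0.123 for all rows, 0.118 for the brightest row of each gene and 0.144 for such rows with a mean of at least 7. It was largest for BNIP3 (0.376), DDIT4 (0.362), P4HA1 (0.309) and BNIP3L (0.291), all hypoxia response genes. It was smallest for MXI1 (0.0750), NDRG1 (0.0785), EGLN3 (0.0794) and EGLN1 (0.104). MXI1 and NDRG1 are hypoxia response genes as well, so that role held both ends of the range. In BNIP3L the SD in U-HO1 was 2.83 times that in L-1236, in ANKRD37 5.79 times and in PDK1 2.19 times, whereas in SLC16A4 it was 0.159 times. Within U-HO1 the labelled knockdown group had the larger SD for ANKRD37 (0.49 against 0.089 on control arrays), BNIP3L (0.50 against 0.23) and PDK1 (0.47 against 0.23). This did not hold for all members. The control arrays had the larger SD for P4HA2 (0.34 against 0.086), SLC2A1 (0.33 against 0.17) and HK2 (0.29 against 0.10), among others. ANKRD37 had an SD of 0.082 on L-1236 control arrays. The small ratio of SLC16A4 goes with its low level in U-HO1, 6.06 to 6.20, and with a wide spread of the L-1236 control arrays. Its SD was 0.44 on those and 0.11 on L-1236 arrays labelled knockdown, beside 0.024 and 0.068 in U-HO1.

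Several hypoxia response genes were highest on U-HO1 knockdown 1, whereas over all members U-HO1 control 2 and control 3 departed from their group in as many genes. BNIP3, a mitochondrial protein of autophagy, read 10.18 on it and 9.05 and 9.19 on the other two arrays of the group, after 9.20, 9.08 and 9.57 on control arrays. BNIP3L read 10.69 against 9.80 and 9.86, with 9.95, 10.02 and 10.37 on control arrays. PDK1 read 9.37 against 8.47 and 8.69, with 8.76, 8.57 and 9.02 on control arrays. ANKRD37 read 8.83 against 7.85 and 8.25, with 8.20, 8.37 and 8.23 on control arrays. KDM3A read 8.90 against 8.24 and 8.24, with 8.40, 8.31 and 8.52 on control arrays. In each of these 5 genes the array was the highest of all 12. DDIT4 read 7.80 against 7.32 and 7.03, and P4HA1 8.70 against 8.01 and 8.56, where the spread was also large on control arrays (7.97, 8.20 and 8.66 for P4HA1; 6.83, 7.36 and 7.50 for DDIT4).

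Each array was then set against the mean of the other two arrays of its group, with a log2 difference of 0.3 as a mark that was chosen after seeing the data. On U-HO1 knockdown 1 the median over the 12 hypoxia response genes was 0.52, and 7 of the 12 were above the mark (58.3%, background 4.57%). The 18 glycolysis genes and glucose transporters had a median of 0.05 on the same array, with 1 of 18 above the mark, PFKFB4 at 0.44. After quantile normalization the hypoxia response median was 0.51, again with 7 of 12 above. Other HIF targets, which are no members, were above the mark in 11 of 35 cases (31.4%), with HILPDA, a lipid droplet protein, at 1.50, TMEM45A at 1.00, NRN1 at 0.92 and CCNG2 at 0.85. These 4 were named for their size after it was seen. Ranked by this deviation among all 18404 genes, HILPDA stood at 1, BNIP3 at 5, BNIP3L at 21, PDK1 at 30, ANKRD37 at 34, KDM3A at 72 and DDIT4 at 88. The rest of the 12 hypoxia response genes ranked lower: P4HA1 at 343, VEGFA at 2318, MXI1 at 2434, ADM at 6719, P4HA2 at 7590 and NDRG1 at 10145. Some other HIF targets lay near the far end, among them EPO at 16646 and TFRC at 18150. HIF1A read 10.99 on this array against 10.67 and 10.91, and EPAS1 6.66 against 6.81 and 6.64. GATA3 was also highest there within its group, 11.07 against 10.12 and 10.22, and its part in the pattern was not tested. On U-HO1 knockdown 2, 7 of the 12 hypoxia response genes lay at least 0.3 below the other arrays of the group (58.3%, background 5.68%), with a median of -0.32. After quantile normalization 5 of the 12 did, with a median of -0.28. The mean that knockdown 2 was set against includes knockdown 1, so the 2 deviations are not independent.

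On U-HO1 control 3, 6 of the 12 hypoxia response genes were above the mark (background 8.93%), with a median of 0.26 and, after quantile normalization, 3 of 12 and a median of 0.14. There 4 of the 18 glycolysis genes were above it as well, namely SLC2A1 at 0.37, PFKL at 0.32, PFKP at 0.35 and ENO2 at 0.40, while ANKRD37 was at -0.05. Glycolysis genes varied on other arrays: their median was 0.21 on L-1236 knockdown 3 and -0.27 on U-HO1 control 2, and 0.10 and -0.14 after quantile normalization. No single-array pattern was tested, because an array is 1 sample. The culture density, oxygen and handling of single samples are not given by the sources used here.

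**Figure D5:**
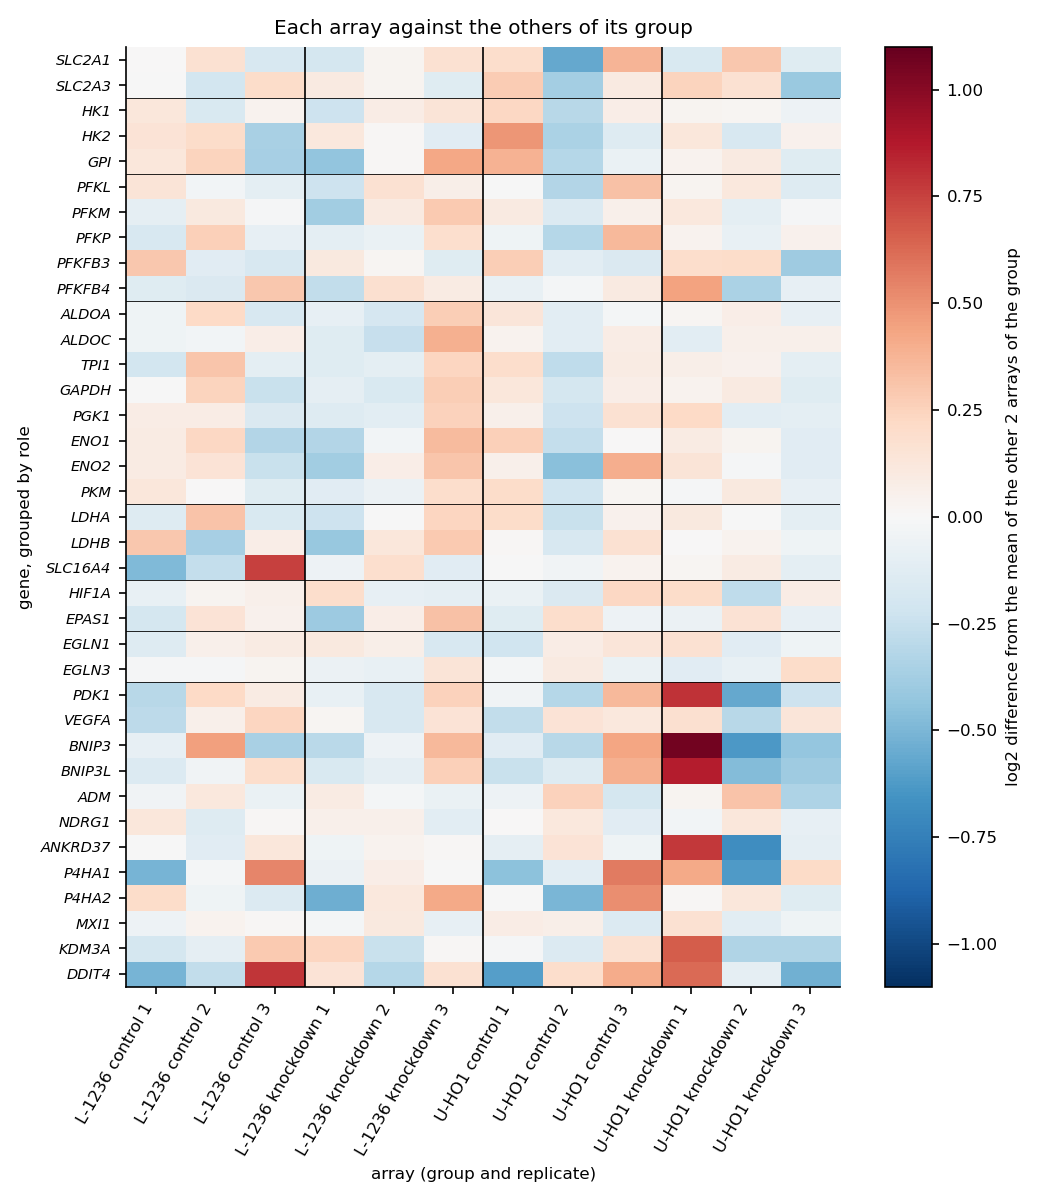
Difference of each array from the mean of the other two arrays of its group (log2, colour) for the 37 members in rows and the 12 arrays in columns. The column of U-HO1 knockdown 1 is red for PDK1, BNIP3, BNIP3L, ANKRD37, KDM3A and DDIT4 and near white for most glycolysis rows.

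Deviations from the group means were correlated between members over the 12 arrays as a description, the arrays sharing group means and normalization. The 153 pairs within glycolysis and glucose transport had a median correlation of 0.50 (0.32 after quantile normalization), led by GPI with ENO1 at 0.985 and ALDOA with GAPDH at 0.966. The 66 pairs of hypoxia response genes had a median of 0.32 (0.26), with PDK1 and BNIP3L at 0.924 and PDK1 and BNIP3 at 0.909. On U-HO1 knockdown 1 alone PDK1, BNIP3L and BNIP3 deviated by 0.79, 0.87 and 1.06. How far that array carries their correlations was not tested. Pairs with 1 gene of each kind had a median of 0.04 over 216 pairs. Single pairs ranged widely, from -0.363 to 0.985 within glycolysis, -0.663 to 0.924 within hypoxia response and -0.907 to 0.934 between the kinds. Pairs of other genes were not examined as a background. The difference between these medians was not tested.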

How the data were processed

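The authors' deposited table holds 1 value per probe set and array on a log scale without a stated base, read here as log2 from its range. How it was normalized and background corrected is not given in the sources used; the submitters' processing notes name R 2.8.1. Probe sets were named through the platform annotation: 19158 of 32321 rows had 1 symbol, 1388 several and 11775 none. All comparisons came from 1 limma fit of group means over the 12 arrays, without a filter (version 3.58.1, R 4.3.3, eBayes moderation, 8 residual df), with Benjamini-Hochberg adjustment over all rows, and was tested on simulated data. Separate cultures are not described beyond the label of independent samples. Replicate numbers were not taken as pairs: deviations of equal numbers correlated at -0.40 to 0.32 within a line and at -0.18 to 0.29 between lines, although all 3 numbers were over 0.1 between the labelled knockdown groups, which no comparison sets against each other alone. Alternatives were scaling, low-level filter, row choice, prior, weights, block and leaving out each array. Arrays were given in full for members past adjusted p 0.05 with a 2-fold difference, for the smallest p, for the largest and smallest SD and for paralog pairs, and others were added for context. Members, lists and tests were chosen with earlier results of these data known.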

Additional observations from a re-analysis of the deposited data

How the results depend on the processing

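The 4 members with at least a 2-fold difference between the lines stayed 4 under every alternative run. With lines compared over both labels, 11 members in place of 7 were lower in U-HO1 and 8 in place of 7 higher, MXI1 being the added one (0.21, adjusted p = 0.0064). Members past the submitters' criteria in L-1236 ranged from 0 to 1 on leaving out an array. Signs were followed through the alternatives only for the members with the smallest p each way in each knockdown comparison. Among these, uncalled signs turned for NDRG1 in L-1236 (0.0048 after quantile normalization, 0.015 with arrays centred on their medians). In U-HO1 they turned for GAPDH (0.024, quantile) and EGLN1 (0.00012, quantile, and 0.036, array quality weights). Leaving out single arrays gave HIF1A -0.13 to 0.030, GAPDH -0.071 to 0.039 and EGLN1 -0.077 to 0.041 in U-HO1. Signs of other members also turned without U-HO1 knockdown 1, such as those of BNIP3 and PDK1 given above. The cause was not tested. With the replicate number as a block, 0 members passed in either line, and 7 were higher and 8 lower between the lines, though equal numbers share only a number. BNIP3L was not called with array weights (0.58, adjusted p = 0.081), nor NDRG1 with only the arrays compared (adjusted p = 0.099). Dim rows have no detection values here, so small folds of low levels are limited by signal over background.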
